A study of Mus musculus with 40 samples.

Results

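Astrocytes keep up the fluid around neurons, and 10 of the genes that carry this work were followed here in 2 regions of the mouse brain, cortex and cerebellum: Aqp4, Slc1a2, Slc1a3, Glul, Gja1, Gjb6, Aldh1l1, S100b, Kcnj10 and Sox9. They were chosen by name, as the probes of the Agilent 1-colour arrays whose gene name equals a listed symbol. This gave 13 probes for 10 of the 36362 gene names on the arrays, with 3 probes for Slc1a2, 2 for Aqp4 and 1 for each of the others. All 13 probes were well above background on all 40 arrays. Where a gene had several probes, the brightest stands for it, and the others are given where they differ.

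RNA was taken from C57Bl/6 mice, with 4 mice per group and 5 groups per brain region. Wild-type mice were 2 months or 29 months old on a normal diet, which held 36 mg of α-tocopherol/kg. The other groups were 29 months old: wild-type mice on a vitamin E deficient diet, Ttpa-/- mice on the deficient diet, and Ttpa-/- mice given a supplement that brought α-tocopherol to 600 mg/kg of diet. The Ttpa product is the transfer protein that keeps α-tocopherol, a form of vitamin E, in the circulation, and the deletion is in the whole animal, so it is not limited to astrocytes. No Ttpa-/- mouse was young or fed the normal diet. The labels do not give the sex of the mice, nor whether cortex and cerebellum came from the same animals.

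Aqp4 encodes the water channel of the astrocyte endfeet on blood vessels, and Kcnj10 encodes the potassium channel Kir4.1, which takes up potassium released by neurons. Slc1a2 (GLT-1) and Slc1a3 (GLAST) encode the transporters that clear glutamate from the synapse, and Glul encodes glutamine synthetase, which turns this glutamate into glutamine. Gja1 (connexin 43) and Gjb6 (connexin 30) encode the gap junction proteins that couple astrocytes into a network. Aldh1l1 encodes a folate enzyme, S100b a calcium-binding protein and Sox9 a transcription factor of the astrocyte lineage, all in common use as astrocyte markers. In the cerebellum, Bergmann glia are the specialised astrocytes that wrap Purkinje cell synapses and are known for high Slc1a3. Tissue arrays do not tell fewer astrocytes from less RNA per astrocyte.

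Each probe is a 60-base strand laid down on the glass. The opening 30 bases are shown 5′ to 3′ for the probes on which the results below turn, because 3 separate Slc1a2 probes carry the largest difference between the regions, and each of the other genes shown rests on a single probe.
Slc1a2, brightest probe: aagcaactctaatcagtgtgtctatgccgc
Slc1a2, the second probe: aacccagtttccagcattcagacatcagta
Slc1a2, the third probe: gtagaatgtttcagagtttcatgggtgccc
Slc1a3: gtttacccggtgtgatattttttatactaa
S100b: gaagctggacttgaggctttctaacttgca
Gjb6: ttcattggacaatatacattgccgattgct
Aldh1l1: aatcagaagtggctccaagtggagtgagca
By the files, on mm9, the 3 Slc1a2 probes lie on the plus strand at chr2:102617752-102617811, chr2:102626380-102626439 and chr2:102622252-102622311, so the last pair lies downstream of the brightest probe and was assigned to a different transcript of the gene. The Slc1a3 probe lies at chr15:8584236-8584295 and the Gjb6 probe at chr14:57742226-57742285, both on the minus strand. The S100b probe lies at chr10:75723783-75723842 and the Aldh1l1 probe at chr6:90549091-90549150, both on the plus strand. No annotation of this build was used here, so exons and untranslated regions are not named.

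Values are log2 signals relative to the 75th percentile of the same array, so a value of 0 is the brightness of that percentile, and levels of different probes are not compared. A gene was called changed with limma at an adjusted p under 0.05, over all probes well above background in a compared group, together with a fold change over 1.5. Genes past the adjusted p at a smaller fold are named as such. The 75th percentile of an array was 365 to 925 intensity units, the share of probes well above background was 51.4% to 61.4%, and arrays of a group correlated at 0.973 to 0.993. Ttpa itself was well above background on 4 of 4 arrays of each wild-type cerebellar group by its brighter probe, and on 0 and 1 of 4 arrays of the Ttpa-/- groups. In the cortex it was above background on at most 1 of 4 arrays of any group, so the cortical labels could not be checked by detection. At these undetected levels the brighter probe read -5.16 to -4.26 in young and -5.31 to -4.54 in aged normally fed wild-type cortex. It read -7.03 to -6.73 in deficient and -6.84 to -6.55 in supplemented Ttpa-/- cortex. Deficient wild-type cortex, at -6.78 to -4.07, overlapped the Ttpa-/- arrays. The cerebellar neuron genes Gabra6 and Cbln3 were above background on none of the 20 cortical arrays, and the cortical neuron gene Emx1 on none of the 20 cerebellar arrays. The other 5 of 7 cerebellar neuron markers were above background on all 4 arrays of each cortical group. So were 3 of 6 cortical neuron markers in each cerebellar group. In young mice the cerebellar neuron markers summed to 4.37 to 5.19 in the cortex and 560 to 663 in the cerebellum. The cortical neuron markers summed to 74.4 to 85.1 and 1.76 to 2.27. The 10 groups lay on 5 slides, 2 groups on each, and a slide was scanned as a unit. Of the comparisons below, ageing in the cortex, the 2 diets of wild-type mice in the cerebellum, the 2 diets of Ttpa-/- mice in the cerebellum, and supplemented Ttpa-/- against deficient wild-type mice in the cortex were each made within a slide. In all others slide and condition cannot be told apart.

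**Figure D1:**
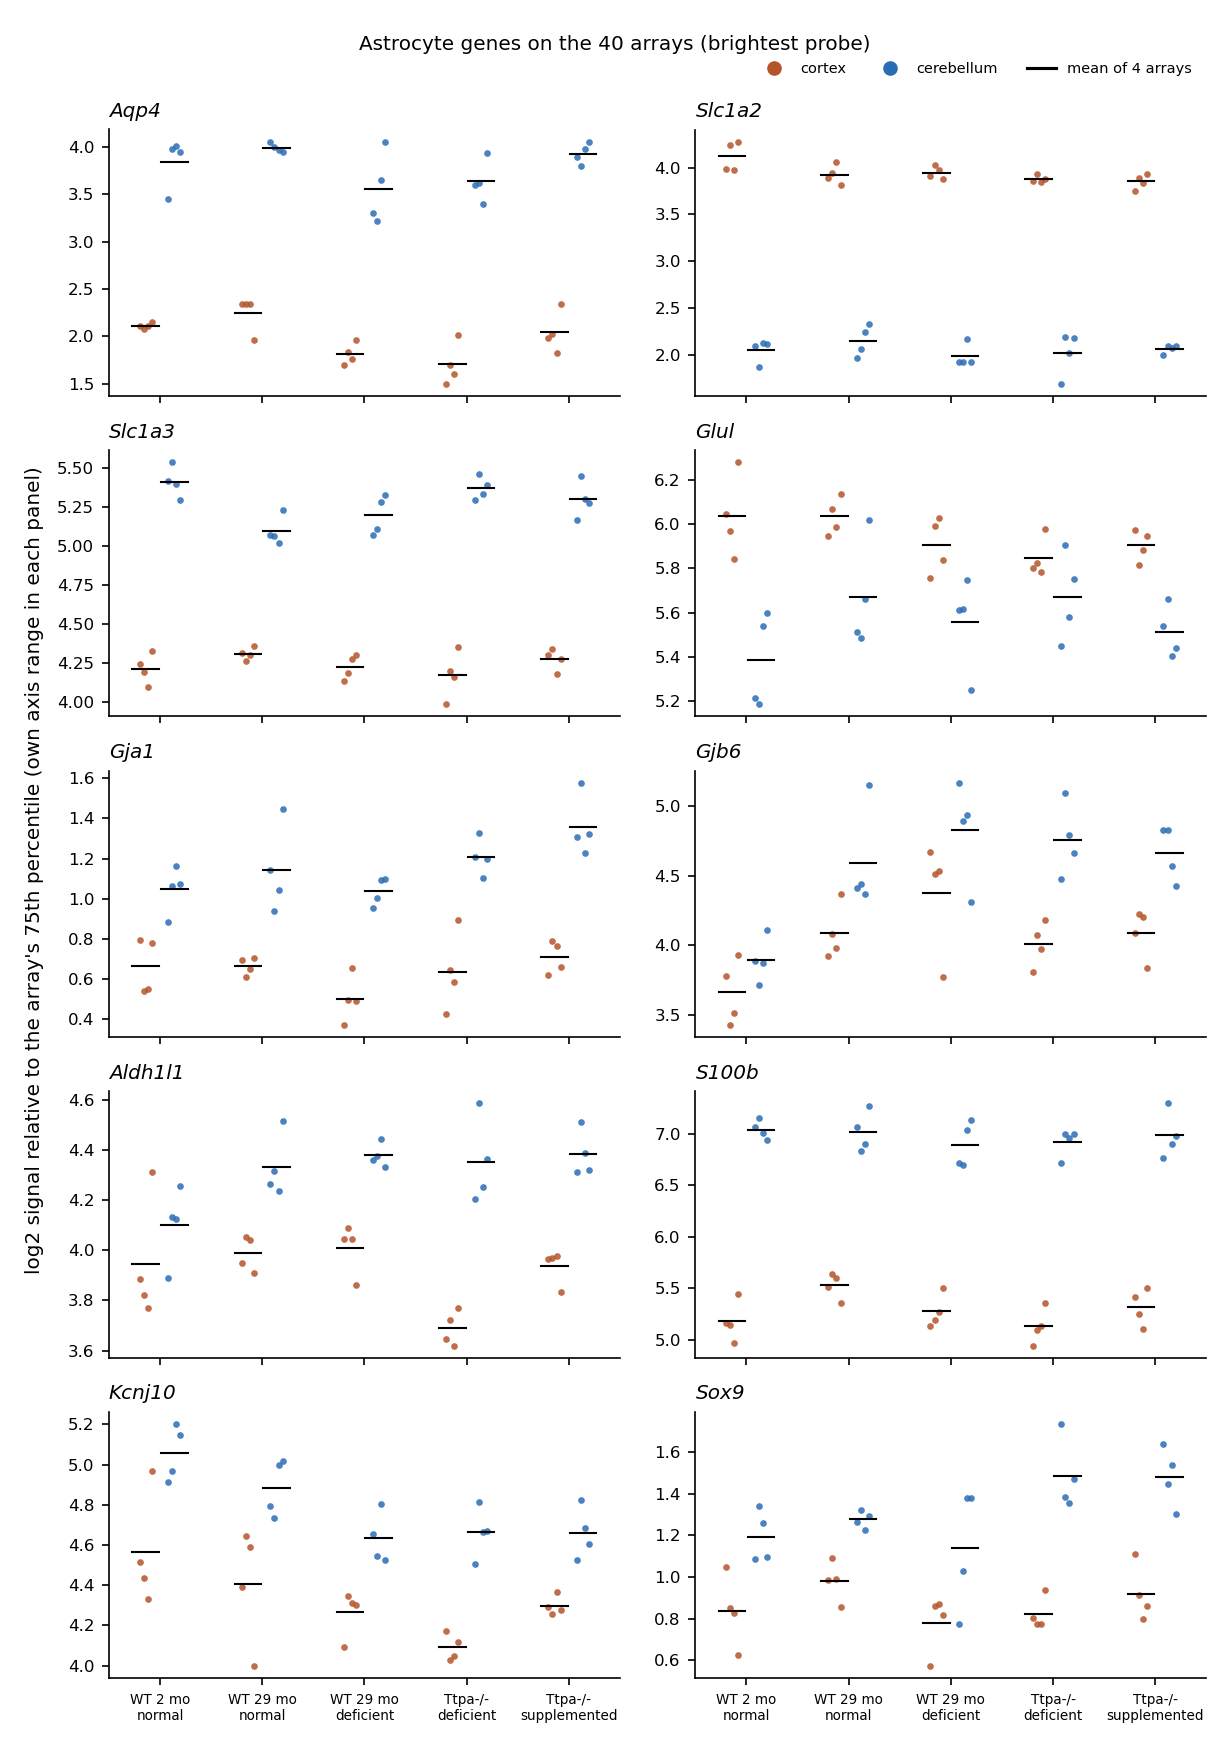
Each panel plots the log2 signal of 1 gene relative to the 75th percentile of its array, over genotype, age and diet, with a point for each of 4 arrays and a line at the mean, cortex in brown and cerebellum in blue. Aqp4, Slc1a2, Slc1a3 and S100b split by region with no overlap between the 20 cortical and the 20 cerebellar arrays, while conditions within a region lie close together.

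Of the comparisons made here, the one between brain regions gave the largest differences in these genes. In wild-type mice fed normally, Aqp4, S100b and Slc1a3 were higher in the cerebellum than in the cortex, and Slc1a2 was lower, at both ages, by 1.73- to 4.19-fold. At 2 months 5 of 10 genes were called, 3 higher and 2 lower, where 38.4% of all tested probes were called. At 29 months 4 of 10 genes were called, 3 higher and 1 lower, against 33.6% of all probes. At any fold, 8 of 10 genes passed the adjusted p at 2 months and 10 of 10 at 29 months, against 62.5% and 56.4% of all probes, so these shares are read against a background in which most of the transcriptome differed. The arrays of the 2 regions did not overlap for 7 of 10 genes at 2 months, against 58.1% of tested probes. At 29 months this was 9 of 10, against 56.4%.

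The 2 glutamate transporters went in opposite directions. Slc1a2 stood at 3.98, 4.25, 3.97 and 4.28 in the cortex of 2-month-old mice and at 2.10, 1.87, 2.13 and 2.11 in their cerebellum. All 4 cerebellar values were lower than all 4 cortical ones, 4.19-fold lower on average (log2 difference -2.07 ± 0.10, SE, adjusted p = 1.14e-18 by limma, exact permutation p = 0.0286, the smallest this design allows). The dimmer Slc1a2 probes gave -2.30 and -2.04 on the log2 scale, so the difference was seen at 3 places along the gene. At 29 months it was -1.78 ± 0.10 (SE, adjusted p = 7.36e-17), with -2.04 and -1.75 by the other probes. Slc1a3 ran the other way, at 4.24, 4.19, 4.10 and 4.32 in the young cortex and 5.42, 5.54, 5.40 and 5.29 in the young cerebellum. It was 2.29-fold higher in the cerebellum at 2 months (log2 difference 1.20 ± 0.08, SE, adjusted p = 6.78e-15) and 1.73-fold higher at 29 months (0.79 ± 0.08, adjusted p = 2.13e-10). Glul, the next enzyme in this cycle, was lower in the young cerebellum by 1.57-fold (log2 difference -0.65 ± 0.12, SE, adjusted p = 2.12e-05). At 29 months its difference was -0.37 (adjusted p = 0.0102), under the fold threshold. The young Glul call was lost with quantile normalization (-0.43), without cortical replicate 4 (-0.57) and without cerebellar replicate 2 (-0.58), each time through the fold and not the adjusted p.

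Aqp4 and S100b were the genes with the largest excess in the cerebellum. Aqp4 read 2.11, 2.08, 2.11 and 2.15 in the young cortex and 3.45, 3.98, 4.01 and 3.95 in the young cerebellum. The cerebellar values lay above all cortical ones, 3.32-fold higher on average (log2 difference 1.73 ± 0.15, SE, adjusted p = 4.70e-12), and the dimmer probe gave 1.48. At 29 months the differences were 1.74 and 1.66 by the 2 probes. S100b read 5.16, 5.15, 4.98 and 5.45 in the young cortex and 7.06, 7.15, 7.01 and 6.94 in the young cerebellum, a 3.62-fold excess (log2 difference 1.86 ± 0.13, SE, adjusted p = 2.14e-14). At 29 months it was 2.81-fold (1.49 ± 0.13, adjusted p = 6.03e-12). Over all conditions, the ranges of the 20 cortical and the 20 cerebellar arrays did not touch for these 4 genes, from 3.75 to 4.28 against 1.69 to 2.33 for Slc1a2, from 3.99 to 4.36 against 5.02 to 5.54 for Slc1a3, from 1.50 to 2.35 against 3.21 to 4.05 for Aqp4, and from 4.95 to 5.64 against 6.70 to 7.29 for S100b. Of 28686 probes above background on all arrays of a region, 24.4% showed such a gap.

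The remaining genes differed little between the regions. Kcnj10, Gja1 and Sox9 were higher in the cerebellum at both ages by 0.30 to 0.49 on the log2 scale, past the adjusted p and under 1.5-fold. Quantile normalization took Kcnj10 over the fold threshold at both ages (0.66 and 0.61), as did leaving out cortical replicate 4 at 2 months (0.63). Gjb6 and Aldh1l1 did not pass at 2 months, with log2 differences of 0.23 (95% confidence interval -0.15 to 0.62) and 0.15 (-0.04 to 0.35). At 29 months they passed the adjusted p with 0.50 and 0.34. Gjb6 was then over the fold threshold with quantile normalization (0.63) and without cortical replicate 4 (0.59), and 5 of 8 fits without an array kept its adjusted p under 0.05. Whether a region difference changed with age is the interaction given with ageing below for Slc1a3, Gjb6 and S100b. For Glul, Aldh1l1 and Slc1a2 such a change was not shown (interactions 0.28, 0.19 and 0.29, adjusted p = 0.566, 0.677 and 0.386 by limma). Aqp4, Gja1, Kcnj10 and Sox9 did not pass either.

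**Figure D2:**
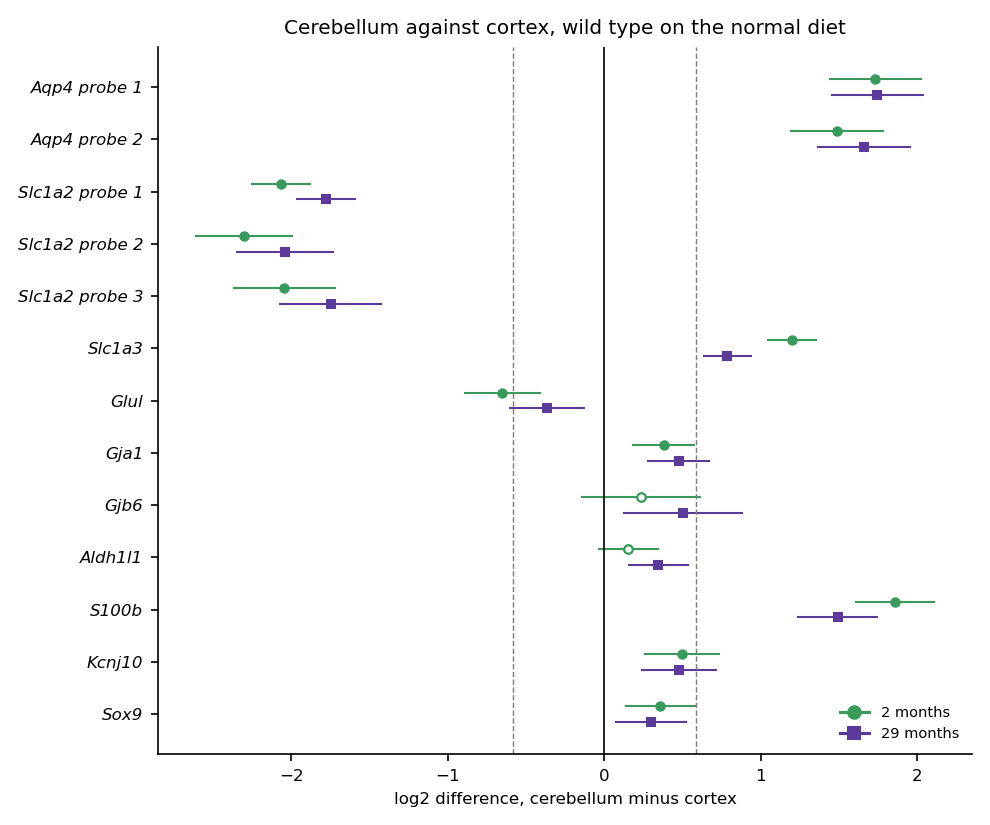
The plot gives the log2 difference of cerebellum minus cortex for each of the 13 probes in normally fed wild-type mice, at 2 months (green circles) and 29 months (purple squares), with 95% confidence intervals, filled symbols for an adjusted p under 0.05 and dashed lines at 1.5-fold. The 3 Slc1a2 probes lie between -2.30 and -1.75, opposite to Slc1a3, Aqp4 and S100b.

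The lists of related genes are given beside the 38.4% of all tested probes called at 2 months. Of 14 endfoot genes other than Aqp4 and Kcnj10, 3 were called higher and 2 lower in the young cerebellum, among them Atp1b2, a glial sodium pump subunit (log2 difference 1.31), and Agrn, a basement membrane proteoglycan (-1.23). Of 12 genes of the glutamate and glutamine list other than the members, 3 were called higher and 3 lower. Of these, Slc1a6, the transporter known from Purkinje cells, was higher by 4.08 on the log2 scale, and Slc1a1, the neuronal transporter, was lower (-2.08). Of 8 connexin and pannexin genes other than the members, 3 were called higher and 1 lower, with Panx1 lowest at -2.72. Of 11 Bergmann glia and cerebellar astrocyte genes 9 were called higher and 1 lower, with Gdf10 at 4.56. Of 13 glial transcription factors other than Sox9, 3 were called higher and 5 lower, Hes5 by -3.52. The median over the 10 members was 0.37 at 2 months and 0.48 at 29 months, beside -0.02 and 0.01 over all tested probes.

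Ageing moved few of these genes, and 1 of 10 was called in the cerebellum and 0 in the cortex, where 5.03% and 2.09% of all probes were called. Gjb6 rose with age in the cerebellum. It read 3.89, 3.72, 3.88 and 4.11 at 2 months and 4.41, 4.44, 4.37 and 5.15 at 29 months. All old values were above all young ones, with the fourth old array far above its group, and the rise was 1.62-fold (log2 change 0.69 ± 0.19, SE, adjusted p = 0.0130, exact permutation p = 0.0286). Such a lack of overlap was seen for 2 of 10 genes in the ageing cerebellum, against 19.1% of tested probes. Without the fourth old array the rise was 0.51 (adjusted p = 0.0943) and no longer a call, and without young replicate 2 it was 0.63 (adjusted p = 0.0551). In the cortex Gjb6 changed by 0.42 (95% confidence interval 0.04 to 0.81, adjusted p = 0.260), and the change was not shown to differ between the regions (interaction 0.27, adjusted p = 0.825).

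Slc1a3 fell with age in the cerebellum. It read 5.42, 5.54, 5.40 and 5.29 at 2 months and 5.07, 5.06, 5.02 and 5.23 at 29 months, with no overlap. The fall was 1.25-fold (log2 change -0.32 ± 0.08, SE, adjusted p = 0.00578, exact permutation p = 0.0286), so it passed the adjusted p and not the fold. In the cortex it read 4.24, 4.19, 4.10 and 4.32 against 4.31, 4.26, 4.30 and 4.36, a log2 change of 0.09. The difference between the regions was tested as an interaction and was -0.41 ± 0.11 (SE, adjusted p = 0.0414), but this p stayed under 0.05 in only 3 of 16 fits that each left out an array, while over 24 alternatives the interaction lay between -0.46 and -0.37. The cortical groups shared a slide and the cerebellar groups did not, so slide cannot be told apart from this difference. At any fold, 2 of 10 genes passed in the cerebellum and 0 in the cortex, where 11% and 4.15% of all probes did.

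Glul and Aldh1l1 also read higher in the aged cerebellum, by 0.28 and 0.23 on the log2 scale, without passing the adjusted p (0.136 and 0.122). S100b changed by 0.35 in the aged cortex (95% confidence interval 0.09 to 0.60, adjusted p = 0.135) and by -0.02 in the cerebellum, and the difference between the 2 was not shown (adjusted p = 0.410). For Aqp4, Slc1a2, Gja1, Kcnj10 and Sox9 the changes lay between -0.19 and 0.15 in the 2 regions by the brightest probes. In the cerebellum the dimmer Aqp4 probe gave 0.27 (adjusted p = 0.287) and the dimmest Slc1a2 probe 0.26 (adjusted p = 0.376). In the cortex 0 genes were called by limma with 2 at an unadjusted p under 0.05, and the methods' t-test with the same fold also called 0. Along with age in the cortex, striatal markers summed to 17.5 to 20.6 in old and 28.8 to 43.0 in young mice. Oligodendrocyte precursor markers summed to 11.4 to 13.1 and 16.8 to 21.0. Blood markers summed to 4.69 to 11.1 and 0.434 to 1.97, and cerebellar neuron markers to 5.49 to 6.42 and 4.37 to 5.19. The sums of the other marker lists overlapped between the ages there. Along with age in the cerebellum, 6 of 8 microglial markers were called higher, their summed level was 98.8 to 114 times the 75th percentile against 84.2 to 91.1 in young mice, 2 of 3 blood markers were higher and 2 of 7 choroid plexus and ependyma markers lower, with sums of 6.66 to 7.44 against 9.22 to 247. Cerebellar neuron markers, 0 of 7 called, summed to 478 to 523 in old and 560 to 663 in young mice, and general neuron markers, 0 of 7 called, to 393 to 442 and 450 to 488. Endothelial markers, 1 of 7 called higher, summed to 37.9 to 46.3 and 31.2 to 33.0, 2 of 4 tested striatal markers were called higher and 1 of 3 oligodendrocyte precursor markers lower. Their part in the results was not tested.

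The related lists are given beside the 2.09% of all probes called with age in the cortex and 5.03% in the cerebellum. Of 16 endfoot genes 0 were called in either region, of 15 glutamate and glutamine genes 0 in the cortex and 1 in the cerebellum, and of 10 connexin and pannexin genes 0 and 2, the latter Gjb6 and Gjc1 (-0.64). Fabp7, a fatty acid binding protein of radial and Bergmann glia, fell in the aged cerebellum (-1.28). It comes from a longer list of other astrocyte genes whose counts are not given here, so it does not stand for that list. Of the reactive astrocyte genes, 10 of 15 were called higher in the aged cortex and 11 of 15 in the aged cerebellum, led by the complement gene C4b (3.42 and 3.56), the chemokine gene Cxcl10 (2.45 and 4.02) and the protease inhibitor gene Serpina3n (2.22 and 3.54).

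**Figure D3:**
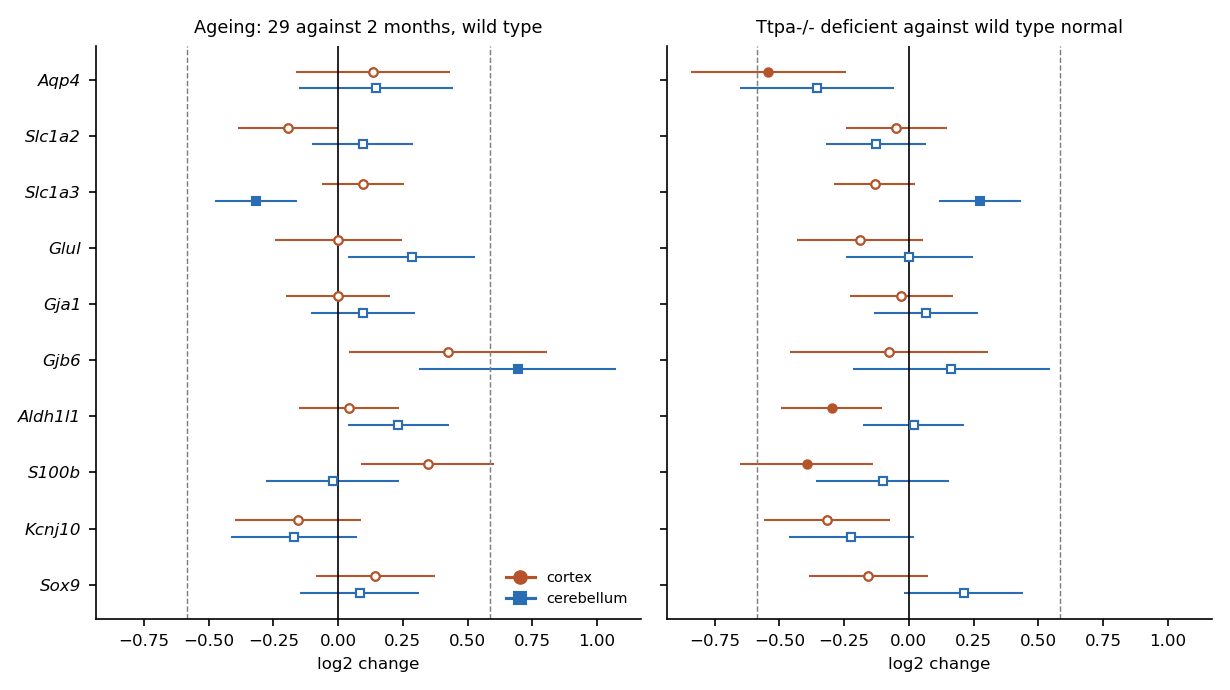
The left panel gives the log2 change of each gene with age in wild-type mice and the right panel that between deficient Ttpa-/- mice and their normally fed aged wild-type controls, cortex in brown circles and cerebellum in blue squares, with 95% confidence intervals, filled symbols for an adjusted p under 0.05 and dashed lines at 1.5-fold. Gjb6 with age in the cerebellum is the only filled point past the dashed line, and Slc1a3 in the cerebellum lies at -0.32 on the left and 0.27 on the right.

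The comparison of deficient Ttpa-/- mice with normally fed wild-type mice of the same age changes genotype, diet and slide together. These data hold no measure of vitamin E in the brain. In the cortex Aqp4, S100b and Aldh1l1 fell, by 1.23- to 1.46-fold, so 3 of 10 genes passed the adjusted p (4 had an unadjusted p under 0.05) and 0 reached the fold, against 19% and 4.75% of all probes. Aqp4 read 2.34, 2.34, 2.35 and 1.96 in the wild-type mice and 1.50, 1.70, 1.60 and 2.01 in the Ttpa-/- mice. The groups met only through the fourth array of each, and the log2 change was -0.54 ± 0.15 (SE, adjusted p = 0.00939, exact permutation p = 0.0571). Without either of those arrays the change was past 1.5-fold (-0.64 and -0.65). The dimmer Aqp4 probe gave -0.25 (95% confidence interval -0.55 to 0.05, adjusted p = 0.250). With arrays scaled by the median the brighter probe gave -0.47 (adjusted p = 0.154).

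S100b read 5.51, 5.64, 5.60 and 5.36 in the wild-type cortex and 4.95, 5.09, 5.14 and 5.36 in the deficient Ttpa-/- cortex, a log2 change of -0.40 ± 0.13 (SE, adjusted p = 0.0257). The groups did not overlap, by a margin below the second decimal. Aldh1l1 read 3.95, 4.05, 4.04 and 3.91 against 3.65, 3.72, 3.62 and 3.77, all lower, with a log2 change of -0.30 ± 0.10 (SE, adjusted p = 0.0267). The groups did not overlap for 2 of 10 genes, against 23.4% of tested probes. Leaving out an array in turn kept the adjusted p under 0.05 in 3 of 8 fits for S100b and 4 of 8 for Aldh1l1. The changes of Aqp4, S100b and Aldh1l1 were not shown to differ between the regions (interactions 0.19, 0.29 and 0.32, adjusted p = 0.637, 0.337 and 0.152 by limma). Kcnj10 read lower by -0.32 (adjusted p = 0.0602). All 10 genes had a change below 0, from -0.54 to -0.03 with a median of -0.17, where the median over all tested probes was -0.02. They share 8 arrays and are not independent of each other. Median scaling moved the median over all tested probes by 0.08 in this comparison, more than the smallest of these changes. In supplemented Ttpa-/- mice against the same wild-type cortical arrays, 9 of 10 genes also read lower, with a median of -0.07. Beside these genes, oligodendrocyte markers had a summed level of 154 to 194 in the Ttpa-/- group and 177 to 307 in the wild-type group, with 1 of 8 called lower, and striatal markers 25.9 to 31.6 against 17.5 to 20.6, with 2 of 5 called higher. The endothelial markers, 0 of 7 called, summed to 32.6 to 36.6 and 33.7 to 38.6. The general neuron markers, 0 of 7 called and 2 lower at any fold, summed to 504 to 541 and 559 to 597, without overlap, and the cortical neuron markers, 0 of 6 called, to 56.4 to 67.6 and 67.1 to 77.0. Their part in the results was not tested.

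In the cerebellum the same comparison gave 0 called genes by limma (2 at an unadjusted p under 0.05, 0 by the methods' t-test with the fold), against 4.46% of probes, and 1 gene at any fold, against 13.2%. This was Slc1a3, at 5.07, 5.06, 5.02 and 5.23 in the wild-type mice and 5.29, 5.46, 5.33 and 5.39 in the deficient Ttpa-/- mice, all higher. The log2 change was 0.27 ± 0.08 (SE, adjusted p = 0.0176, exact permutation p = 0.0286), and in the cortex it was -0.13. The difference between the regions was 0.41 ± 0.11 (SE, adjusted p = 0.0218). Both effects cross slides, so slide cannot be told apart from this difference. The aged wild-type cerebellum is the group common to this comparison and to ageing, so the rise here and the fall with age rest on the same 4 arrays. Beside it, 3 of 8 oligodendrocyte markers were called lower, with sums of 154 to 203 against 223 to 269, and 3 of 8 microglial markers, with sums of 81.9 to 105 against 98.8 to 114, and their part was not tested. Aqp4 read lower by -0.35 with the brighter probe (adjusted p = 0.107) and by -0.46 with the dimmer one (adjusted p = 0.0360), and with both probes all 4 Ttpa-/- values were below all 4 wild-type values. By the brightest probes the groups did not overlap for 3 of 10 genes, against 17.0% of tested probes. Of the 16 endfoot genes, 0 were called in the cerebellum. Of the 15 genes of the glutamate and glutamine list, 1 was called in the cortex, the neuronal vesicular transporter Slc17a7 (0.71), and 0 in the cerebellum, and 0 of 10 connexin and pannexin genes were called in either region.

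The diet and the genotype can be compared one at a time through the wild-type mice on the deficient diet. Both genotype comparisons, and the diet comparison in the wild-type cortex, cross slides, so slide cannot be told apart there. In the cerebellum of wild-type mice, where both diets lay on the same slide, Aqp4 read 4.05, 4.00, 3.97 and 3.94 on the normal diet and 3.31, 3.21, 3.65 and 4.05 on the deficient diet. The fourth deficient array stood with the normal group. The log2 change was -0.43 ± 0.15 (SE, adjusted p = 0.0766), and -0.60 (adjusted p = 0.0106), now called, without that array. The dimmer probe read 3.51, 3.62, 3.57 and 3.74 against 2.84, 2.63, 2.94 and 3.60, a called fall of 1.52-fold (-0.61 ± 0.15, adjusted p = 0.0198), which was just under the fold with quantile normalization (-0.58). By the brightest probes 0 of 10 genes were called (2 at an unadjusted p under 0.05), against 1.27% of probes, and 0 passed at any fold, against 4.58%. With them, 2 of 8 oligodendrocyte markers were called lower, with sums of 130 to 228 against 223 to 269, and 1 of 3 oligodendrocyte precursor markers, with sums of 2.29 to 3.23 against 3.28 to 4.63, and their part was not tested.

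In the cortex of wild-type mice Aqp4 read 2.34, 2.34, 2.35 and 1.96 on the normal diet and 1.70, 1.84, 1.76 and 1.96 on the deficient diet, which did not overlap by a margin below the second decimal. The log2 change of Aqp4 was -0.43 (95% confidence interval -0.73 to -0.13, adjusted p = 0.149) and -0.34 with the dimmer probe (adjusted p = 0.263). By limma 0 of 10 genes were called (1 at an unadjusted p under 0.05), against 0.223% of probes, and 0 passed at any fold, against 0.34%. Beside these genes, striatal markers summed to 27.4 to 57.5 on the deficient and 17.5 to 20.6 on the normal diet. The sums of the other marker lists overlapped, and the part of these markers was not tested.

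Between genotypes on the same deficient diet, Aldh1l1 was the gene that differed in the cortex, at 4.04, 4.09, 4.05 and 3.86 in wild-type and 3.65, 3.72, 3.62 and 3.77 in Ttpa-/- mice. All Ttpa-/- values were lower, by -0.32 ± 0.10 on the log2 scale (SE, adjusted p = 0.0247), under the fold. The groups did not overlap for 1 of 10 genes, against 17.2% of tested probes. The adjusted p of Aldh1l1 stayed under 0.05 in 3 of 8 fits without an array and in 10 of 18 alternatives in all, and reached 0.284. Beside it, general neuron markers, 0 of 7 called, summed to 504 to 541 in Ttpa-/- and 550 to 598 in wild-type mice, and endothelial markers, 0 of 7 called, to 32.6 to 36.6 and 37.1 to 53.6, and their part was not tested. This was 1 of 10 genes at any fold (1 at an unadjusted p under 0.05) and 0 called, against 13% and 3.07% of probes. The deficient Ttpa-/- group is common to this comparison and to the fall of Aldh1l1 against the normal diet. Aqp4 differed by -0.11 (95% confidence interval -0.41 to 0.19) in the cortex and 0.08 (-0.22 to 0.38) in the cerebellum. The dimmer probe gave 0.09 (-0.21 to 0.39) and 0.15 (-0.15 to 0.45). In the cerebellum Sox9 was higher in Ttpa-/- mice, at 1.74, 1.39, 1.36 and 1.47 against 0.77, 1.03, 1.38 and 1.38, groups that overlap, with a log2 change of 0.35 ± 0.11 (SE, adjusted p = 0.0373, exact permutation p = 0.114). Its adjusted p stayed under 0.05 in 4 of 8 fits without an array. Beside it, 1 of 3 oligodendrocyte precursor markers was called higher, with sums of 3.26 to 4.31 against 2.29 to 3.23, as was 1 of 8 microglial markers, and their part was not tested. This was 1 of 10 genes at any fold (2 at an unadjusted p under 0.05) and 0 called, against 12.8% and 4.94% of probes. The genotype change was not shown to differ between the regions for Aldh1l1 (interaction 0.29, adjusted p = 0.232 by limma) or Sox9 (0.31, adjusted p = 0.295).

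Between the deficient and the supplemented diet of Ttpa-/- mice, none of these genes was called in either region. In the cortex Aqp4 read 1.50, 1.70, 1.60 and 2.01 on the deficient and 1.99, 2.03, 1.82 and 2.34 on the supplemented diet, overlapping, with a log2 change of -0.34 ± 0.15 (SE, adjusted p = 0.119) and of -0.03 by the dimmer probe. Aldh1l1 read 3.65, 3.72, 3.62 and 3.77 against 3.96, 3.97, 3.98 and 3.83, all lower on the deficient diet, with a change of -0.25 ± 0.10 (SE, adjusted p = 0.0801). The groups did not overlap for 2 of 10 genes, against 19.0% of tested probes. Beside these genes, oligodendrocyte markers summed to 154 to 194 on the deficient and 229 to 299 on the supplemented diet. General neuron markers summed to 504 to 541 and 545 to 575, and cortical neuron markers to 56.4 to 67.6 and 70.3 to 74.8. The sums of the other marker lists overlapped, and the part of these markers was not tested. In this comparison same-numbered arrays deviated together, and with the replicate number as a block in a fit of these 8 arrays 0 genes were called as well. The counts were 0 of 10 called and 0 at any fold by limma (2 at an unadjusted p under 0.05), against 3.31% and 14.1% of probes. In the cerebellum, within a slide, both counts were 0 (0 at an unadjusted p under 0.05), against 0.343% and 0.767%, and Aqp4 changed by -0.29 (95% confidence interval -0.59 to 0.01) with each probe.

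Supplemented Ttpa-/- mice were also set against wild-type mice. Against the normal diet, 0 of 10 genes were called and 0 passed at any fold in the cortex (0 at an unadjusted p under 0.05), where 0.092% and 0.212% of probes did, and changes lay between -0.21 and 0.04. In the cerebellum the counts were also 0 and 0 (2 at an unadjusted p under 0.05), but there 4.91% and 14.7% of probes passed. Slc1a3 was at 5.17, 5.45, 5.30 and 5.27 in these mice against 5.07, 5.06, 5.02 and 5.23, with a change of 0.20 ± 0.08 (SE, adjusted p = 0.0727), beside the 0.27 of the deficient Ttpa-/- mice, which share the wild-type arrays. Aqp4 changed by -0.20 in the cortex and -0.06 in the cerebellum. Against wild-type mice on the deficient diet in the cortex, within a slide, 0 genes were called and 0 passed at any fold (1 at an unadjusted p under 0.05), against 0.0316% and 0.0492% of probes, and Aqp4 differed by 0.23 (95% confidence interval -0.07 to 0.53). The methods' t-test with the fold called 0 genes in each of these comparisons.

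**Figure D4:**
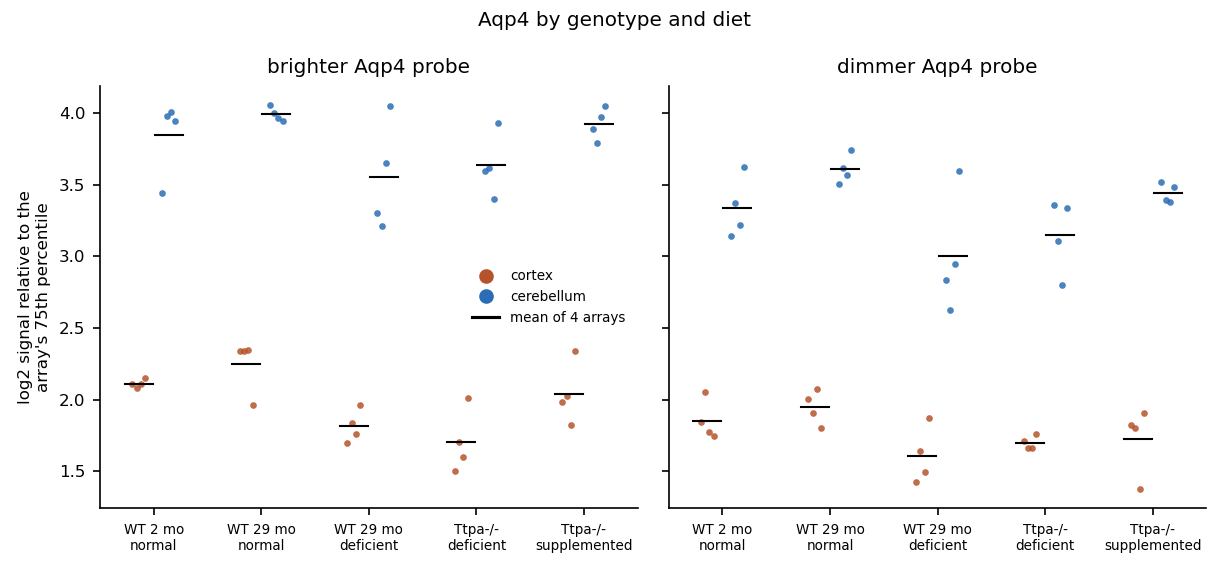
Both Aqp4 probes are plotted by genotype and diet, with a point for each of 4 arrays and a line at the mean, as log2 signal relative to the 75th percentile of the array, cortex in brown and cerebellum in blue. Means on the deficient diet are 1.82 and 1.70 in the cortex and 3.56 and 3.64 in the cerebellum with the brighter probe, against 2.25 and 3.99 in the normally fed aged controls, and the deficient Ttpa-/- arrays overlap the normal ones in the cortex with the brighter probe and in the cerebellum with neither.

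Set in order of level, most neighbouring groups lay closer together than the spread of single arrays, which is a description and not a test. In the 10 groups of each gene, ordered by mean, 6 to 9 of the 9 gaps between neighbours were smaller than the larger SD of the pair. Within a region the group means of Slc1a3 spanned 0.13 on the log2 scale in the cortex and 0.32 in the cerebellum, those of Gjb6 0.71 and 0.93, and those of Aqp4 0.54 and 0.43, with SDs within groups of 0.09 and 0.10, 0.25 and 0.28, and 0.17 and 0.24. Gjb6 read lowest in young mice in both regions and highest in wild-type mice on the deficient diet, at 4.37 ± 0.40 in the cortex and 4.82 ± 0.36 in the cerebellum (SD, n = 4), and neither differed from the normal diet past the adjusted p (0.471 and 0.497).

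The 10 genes varied together only in part. Over the 20 arrays of a region, which share scaling, slides and conditions, the median Pearson correlation over 45 pairs was 0.39 in the cortex and 0.23 in the cerebellum. With group means taken out, the medians were 0.33 and 0.35, and 39 and 38 of the 45 pairs were positive. On that scale the highest pair in the cortex was Slc1a3 and Gja1 (0.79) and in the cerebellum Slc1a3 and S100b (0.91), and the lowest in both was Aqp4 and Gjb6 (-0.34 and -0.48). Some pairs depended on the group means, and Gjb6 and Kcnj10 in the cerebellum had -0.42 with them and 0.54 without. Of 18063 probes above background on all arrays, those most like the mean of the members in the cortex were of Cyfip1 (0.91), Prdx6 (0.90), Rbx1 (0.90), Fgf1 (0.89) and Ctnnd1 (0.89). In the cerebellum they were of Klhl25 (0.92), Psat1 (0.90), Adk (0.88), Ppm1b (0.87) and Hsd17b4 (0.87), of which Psat1 makes serine in astrocytes and Adk clears adenosine.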

How the data were processed

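RNA of cortex and cerebellum was hybridized to 40 arrays. The authors deposited spot intensity, with background subtracted by Feature Extraction (10.1.1.1 by the submitters' processing notes, 10.7.3.1 by the file headers), and log2 values centred on each probe's mean, which differed from those computed here by a median of 0.000915. Flagged spots were dropped, repeated spots averaged and 92 of 55681 probes left out. Log2 intensity minus the array's 75th percentile was fitted with limma 3.58.1 (R 4.3.3), with a mean for each of 10 groups. Adjusted p values are Benjamini-Hochberg over probes well above background on 4 of 4 arrays of a compared group. The fit was tested on simulated data. The number of arrays limits the precision. Members, lists and rules were chosen with earlier results of these data known. From the lists, called genes with the largest change are named, up to 3 each. A result of the endfoot list in the cortex is not reported here. All 13 probe transcripts matched the RefSeq names.

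Between the diets of Ttpa-/- mice in the cortex, all 4 same-numbered pairs of arrays deviated together (correlations of 0.10 to 0.45). An added fit therefore took replicate numbers as pairs there, while the changes and adjusted p values given come from the fit without pairs. In no other comparison did all 4 exceed 0.1. Alternatives were median scaling, quantile normalization, normexp (offset 50), the authors' values, no filter, fits of the compared groups, array weights, replicate blocks, the mean of a gene's probes, the methods' t-test, no fold threshold and each array left out. Since every group lies on a single slide, no fit could hold slide as a block.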

Additional observations from a re-analysis of the deposited data

Results flagged for a closer look

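Slc1a3 changed differently in the 2 regions in 2 comparisons, by the interaction test. Its change with age was lower by -0.41 on the log2 scale in the cerebellum than in the cortex, and its change in deficient Ttpa-/- against normal wild-type mice was higher by 0.41. Both interactions use the aged wild-type arrays. Of the effects they compare, only ageing in the cortex was measured within a slide. Slide therefore cannot be told apart from either interaction.

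In 8 of 100 sets of 4 arrays (10 genes in 10 groups) a single array stood apart by Dixon's ratio of gap to range, where chance gives about 5%. For Aqp4 these were aged wild-type cortex replicate 4 on the normal diet (1.96, others 2.34 to 2.35, ratio 0.974) and young cerebellum replicate 1 (3.45, others 3.95 to 4.01, ratio 0.897). For Slc1a2 they were young cerebellum replicate 2 (1.87, others 2.10 to 2.13, ratio 0.892) and deficient wild-type cerebellum replicate 3 (2.17, others 1.92 to 1.93, ratio 0.979). The others were Gjb6 in aged wild-type cerebellum replicate 4 (5.15, others 4.37 to 4.44, ratio 0.911), Aldh1l1 in supplemented Ttpa-/- cortex replicate 4 (3.83, others 3.96 to 3.98, ratio 0.921), S100b in deficient Ttpa-/- cerebellum replicate 1 (6.72, others 6.96 to 6.99, ratio 0.886) and Sox9 in deficient Ttpa-/- cortex replicate 4 (0.94, others 0.78 to 0.80, ratio 0.846).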

How the results depend on the processing

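No member's called change turned its direction under any alternative. Counts of called members among 10 were kept within 1.5 times by quantile normalization, normexp, the authors' log2 values, the mean of a gene's probes and the replicate block over all 40 arrays, in all 15 comparisons. For ageing in the cerebellum the count of 1 was 0 with median scaling, with the 2 groups fitted alone and with the methods' t-test after Benjamini-Hochberg, and 0 to 1 when an array was left out (0 without young replicate 2 or aged replicate 4). For deficient Ttpa-/- against normal wild-type mice in the cortex the count of 0 was 1 with array weights (Aqp4, -0.63) and 0 to 1 without an array, and for the deficient diet in the wild-type cerebellum it was 0 to 1. With the adjusted p alone, the counts were 2 for ageing in the cerebellum, 3 and 1 for deficient Ttpa-/- against normal wild-type mice in cortex and cerebellum, 1 and 1 for genotype on the deficient diet, and 8 and 10 for the regions at 2 and 29 months.

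The count of members whose ageing differed between the regions was 1 of 10, where 573 of 31372 probes passed, and 0 with median scaling, 0 without the filter on dim probes, and 0 to 1 when an array was left out (1 in 3 of 16 fits). That for deficient Ttpa-/- against normal wild-type mice was 1 of 10, where 2222 of 31560 probes passed, and 0 with median scaling, 3 with array weights (Slc1a3, Aldh1l1 and Sox9) and 0 to 1 without an array (0 without deficient Ttpa-/- cortex replicate 1). The cause was not tested. Median scaling moved the median of all probes by -0.18 to 0.18 between comparisons, so changes of this size are uncertain. The pairing of arrays by replicate number, or of cortex and cerebellum as the same mouse, in a replicate block changed no call. Of the values of single genes under an alternative, 116 had the other sign, all of changes that were not called.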
